A study of Mus musculus with 6 samples.

Results

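The genes described here encode the machinery by which almost every nucleated cell shows peptides from its own proteins at its surface, namely MHC class I heavy chains, their light chain, and factors that load peptide onto them. The 10 genes were listed by name and looked up in the deposited table of 25860 genes by Entrez Gene ID: H2-K1, H2-D1, H2-Q4, H2-Q7, H2-Q8, H2-T23, H2-M2, B2m, Tap1 and Tapbp. The list was drawn up with the values of these libraries known, so the members' values are given as a description without a test. Of the 10, 8 had a row in the table, and all 8 of those reached the minimum of 10 reads summed over the libraries that the fit required. H2-Q4 (Gene ID 15015) and H2-Q7 (Gene ID 15018) had no row under their IDs. A row under another ID, titled as a class I GS10 like gene, may belong to H2-Q4, because RefSeq gives H2-Gs10 as a synonym of H2-Q4. It was matched by name alone, so it was not counted among the 8, and its values are given with the other heavy chains.

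Lung tissue that looked normal was taken at 12 months of age in 3 animals of genotype RAG1-/-, here replicates 1, 2 and 3, and in 3 of genotype RAG1-/- Sgo1-/+, here replicates 4, 5 and 6, and each animal gave 1 RNA-seq library. Both groups are homozygous for a germline loss of Rag1, which developing T and B lymphocytes need to form their receptors. Both came from crosses on a C57BL/6 background, and neither received a treatment. The second group also carries 1 disrupted copy of Sgo1, whose product shugoshin protects the cohesion of sister chromatids in mitosis, and the study uses the loss of that copy as a model of chromosome instability. The comparison asks how lungs prone to chromosome instability differ from lungs that only lack adaptive immunity.

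A class I molecule is a heavy chain, held in shape by B2m and filled with a peptide. Peptides are cut by the proteasome, pumped into the endoplasmic reticulum by the transporter of Tap1 and Tap2, and fitted to the heavy chain by tapasin, the product of Tapbp, with calreticulin and Pdia3. H2-K1 and H2-D1 are the classical heavy chains that present to CD8 T cells, whereas H2-Q4, H2-Q7, H2-Q8, H2-T23 and H2-M2 are non-classical ones. H2-T23 encodes Qa-1, which is read by the CD94 receptors of natural killer cells. In lung, class I is made by epithelium, endothelium and leukocytes alike, and interferons raise it. Since the RNA is from whole tissue, fewer cells of a type and less RNA per cell cannot be told apart in any value below.

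The promoters of H2-K1, H2-D1, B2m and H2-M2 are shown because the first pair diverged in the libraries, B2m is the partner of the heavy chains, and H2-M2 was the member with the lowest level. Each is the 200 bases before the RefSeq transcription start on GRCm38.p6, written along the gene's strand, and capitals mark matches to the motifs named after them. They lie at chr17:34000348-34000547 on the minus strand for H2-K1 (the first of 2 RefSeq starts), chr17:35262894-35263093 on the plus strand for H2-D1, chr2:122147487-122147686 on the plus strand for B2m, and chr17:37483555-37483754 on the minus strand for H2-M2.
H2-K1: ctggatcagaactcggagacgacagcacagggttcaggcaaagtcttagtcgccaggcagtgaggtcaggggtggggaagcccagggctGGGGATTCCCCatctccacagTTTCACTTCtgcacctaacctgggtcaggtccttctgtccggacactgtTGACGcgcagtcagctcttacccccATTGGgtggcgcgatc
H2-D1: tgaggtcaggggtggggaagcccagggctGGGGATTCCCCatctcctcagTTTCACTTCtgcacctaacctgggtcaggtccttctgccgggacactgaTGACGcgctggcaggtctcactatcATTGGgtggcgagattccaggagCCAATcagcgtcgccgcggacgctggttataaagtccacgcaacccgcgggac
B2m: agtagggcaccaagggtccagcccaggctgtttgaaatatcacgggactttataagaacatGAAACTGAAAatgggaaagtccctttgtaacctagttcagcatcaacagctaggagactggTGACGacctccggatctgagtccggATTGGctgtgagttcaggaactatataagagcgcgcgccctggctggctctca
H2-M2: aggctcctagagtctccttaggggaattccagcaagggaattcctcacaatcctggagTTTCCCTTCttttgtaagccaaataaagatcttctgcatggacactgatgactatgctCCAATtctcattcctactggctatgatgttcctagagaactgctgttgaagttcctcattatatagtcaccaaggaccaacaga

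The windows of 9 members (H2-Q8 was not matched) were searched on both strands for 5 motifs, as was done for 32851 windows of the same length before all starts in the RefSeq table. The kappa B palindrome known as enhancer A of class I genes, which is the first run of capitals in the H2-K1 and H2-D1 sequences, was found in H2-K1 and H2-D1 and in 9 windows of the whole set (0.0274%). It began at -111 in H2-K1, counted from the first of 2 RefSeq starts, and at -171 in H2-D1. The same bases, from tgaggtcagg on, precede it in both windows, so these distances depend on the start used. The interferon element GAANNGAAA was found in 5 of the 9 (H2-K1, H2-D1, H2-Q4, H2-Q7 and H2-M2), against 5.0% of all windows, and a longer form, with 1 more A before the 2 free positions, in H2-T23 and B2m, against 2.27%. No member held both forms, and matches of different motifs did not overlap. The TGACG core of a cyclic AMP element was found in 6 of 9 members (15.7% of windows) and the Y box core CCAAT in 8 of 9 (29.3%). H2-K1 and H2-D1 shared 128 of 141 aligned bases upstream (90.8%), while H2-K1 and B2m shared 64 of 117 (54.7%). These are matches of letters and not measured sites.

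Libraries held between 3205822 and 9366774 reads on genes, so that 3 reads, the least amount treated as detected, stood for 0.320 to 0.936 CPM (reads scaled to a common library total). With 6, 2 and 4 reads in the controls and 6, 0 and 2 in the heterozygotes, Sgo1 was too scarce to check the genotype. Rag1 had between 8 and 24 reads in every library. Lung markers were high throughout, the 5 alveolar type 2 markers summing to 20280 to 29680 CPM. RAG1-/- replicate 2 went against its label: the 5 B cell markers summed to 79.6 CPM there and to between 6.67 and 8.49 CPM elsewhere, and Ms4a1 and Pax5 had 78 and 9 reads there and 0 in each other library. The 5 T cell markers summed to 23.64 CPM in that library and 16.53 CPM in RAG1-/- Sgo1-/+ replicate 6, against 4.84 to 7.26 CPM elsewhere. Of these, Lck in replicate 6 (4.991 CPM) was below RAG1-/- replicate 1 (5.552 CPM). Cd8a had 34 reads in replicate 2 and 12 in replicate 6, Cd8b1 had 21 and 8, and both had 0 in each other library. RAG1-/- replicate 1 had 7717 reads of Xist and the other 5 libraries between 4 and 8. RAG1-/- Sgo1-/+ replicate 6 had macrophage markers at 350.9 CPM in sum, against 111 to 149 in the other libraries, mostly from Mrc1 (250.5 CPM) and Cd68 (63.01 CPM), while Siglecf was at 6.24 CPM there and between 4.44 and 11.3 CPM elsewhere. Among 17231 genes tested with edgeR, 0 passed an adjusted P of 0.05 with a 2-fold difference (the percentage called was 0), 976 (5.66%) had an unadjusted P under 0.05, and the groups did not overlap in 2030 (11.8%), with RAG1-/- Sgo1-/+ higher in 6.24% of all genes and lower in 5.54%. DESeq2 called 1 gene, which is no member, and limma-voom 0, with 694 and 837 genes at an unadjusted P under 0.05.

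H2-K1 (Gene ID 14972), the classical heavy chain K, had an SD between RAG1-/- Sgo1-/+ libraries that was larger than their mean. It had 2377, 1092 and 1510 reads in RAG1-/-, against 114, 2107 and 101 in RAG1-/- Sgo1-/+. Scaled to depth, these were 253.8, 220.6 and 228.5 CPM against 23.03, 390.3 and 31.51 CPM. Replicates 4 and 6 lay far below every RAG1-/- library, and replicate 5 lay above them all, so the groups overlapped although the RAG1-/- libraries were close together. The lowest RAG1-/- library was 9.58 times replicate 4 and 7.003 times replicate 6. The means were 234 ± 17.3 CPM and 148 ± 210 CPM (SD, n = 3 each), with a log2 fold change of -0.65 (SE 0.81). No RAG1-/- Sgo1-/+ library lay near its group's mean. The log2 fold change became -3.11 without replicate 5 and 0.74 without replicates 4 and 6. Both values follow from which libraries are left out, so neither is a test.

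H2-D1 (Gene ID 14964), the other classical heavy chain of this strain, did not share that pattern. It had 10341, 5025 and 6993 reads in RAG1-/-, against 5399, 8025 and 6019 in RAG1-/- Sgo1-/+. The levels were 1104, 1015 and 1058 CPM against 1091, 1487 and 1878 CPM. Replicate 4 was inside the range of RAG1-/-, and replicates 5 and 6 were above it. The means were 1059 ± 44.4 CPM and 1485 ± 393 CPM (SD, n = 3 each), with a log2 fold change of 0.49 (SE 0.18). Leaving out each library in turn gave 0.28 to 0.67.

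**Figure D1:**
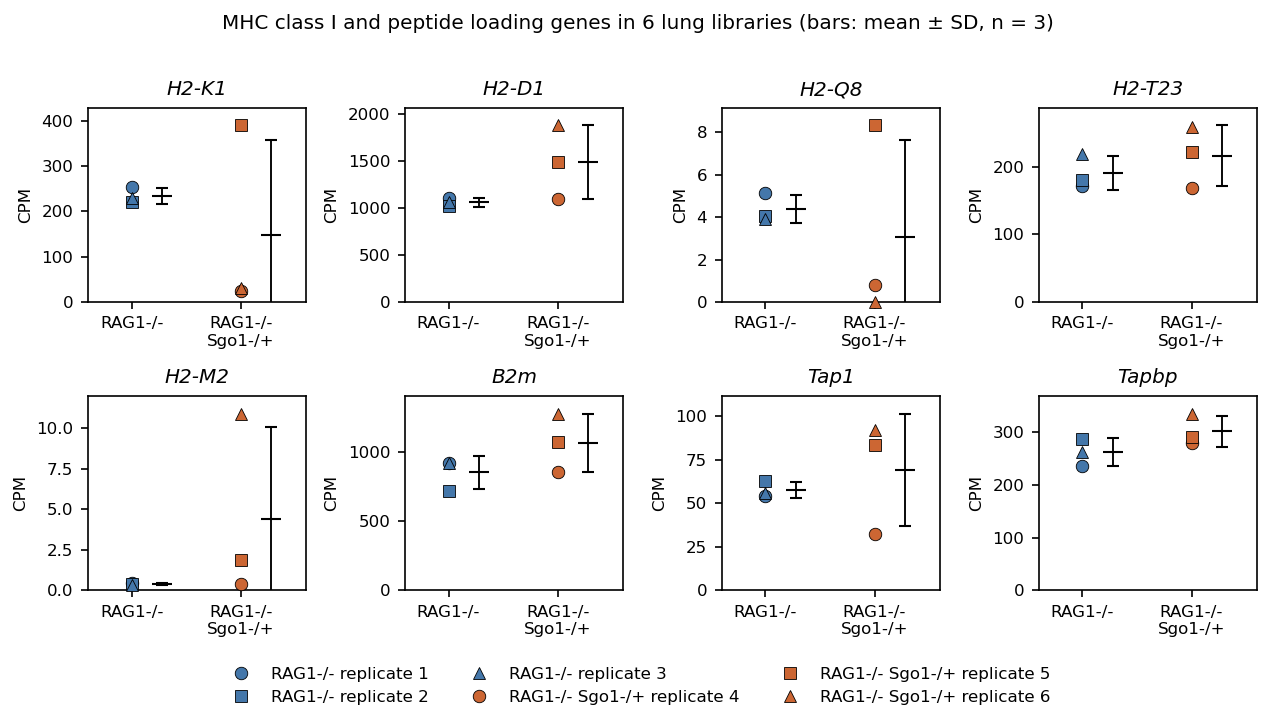
CPM of the 8 members in each library (vertical axis, linear, from 0 in every panel; an SD bar that would pass below 0 ends at the axis), with RAG1-/- in blue and RAG1-/- Sgo1-/+ in orange and bars at the mean ± SD of 3 libraries. H2-K1 and H2-Q8 were low in replicates 4 and 6 and highest in replicate 5, while replicate 6 was the highest library for the other 6 members.

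Because a share of reads within a library does not depend on its depth, H2-K1 was also set against H2-D1. Reads of H2-K1 were 18.69%, 17.85% and 17.76% of the reads of both genes in RAG1-/-. In RAG1-/- Sgo1-/+ they were 2.07% (114 of 5513), 20.8% (2107 of 10132) and 1.65% (101 of 6120) in replicates 4, 5 and 6. The 95% Wilson intervals were 1.72 to 2.48% for replicate 4 and 1.36 to 2.001% for replicate 6, against a lowest bound of 16.9% among the 3 RAG1-/- libraries. The intervals of replicates 4 and 6 overlapped, and the remaining 4 libraries lay between 17.76 and 20.8%. Intervals cover counting error only. Even values made up 80.5% of the counts from 1 to 20, as counting both ends of a read pair would give, and the intervals are too narrow where ends were counted.

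**Figure D2:**
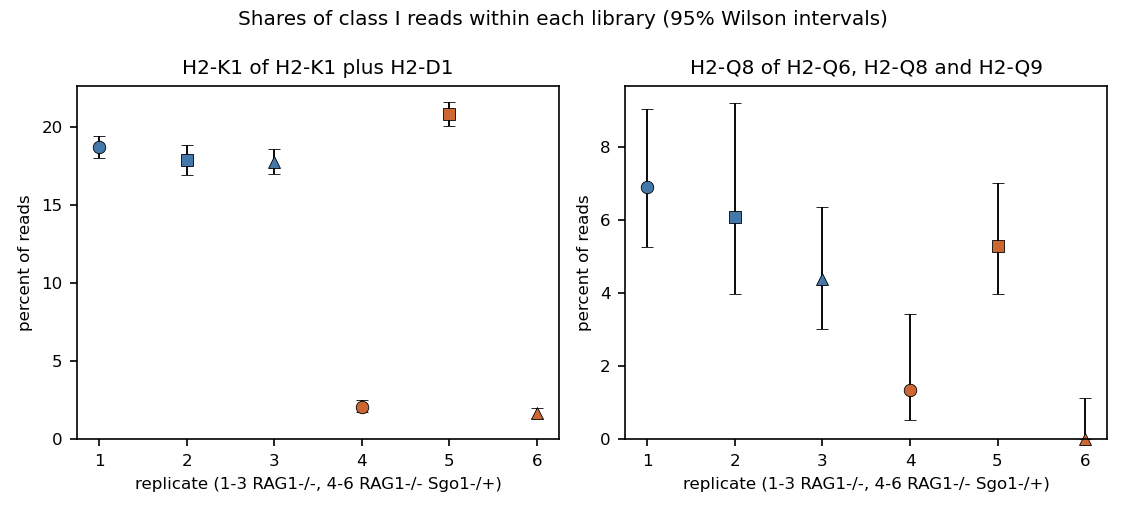
Share of H2-K1 in the reads of H2-K1 and H2-D1 (left) and of H2-Q8 in the reads of H2-Q6, H2-Q8 and H2-Q9 (right), in percent, for each library, with 95% Wilson intervals as bars. H2-K1 lay at 2.07 and 1.65% in replicates 4 and 6 and between 17.76 and 20.8% elsewhere, and H2-Q8 at 1.36 and 0% against 4.39 to 6.91%. For H2-Q8 the interval of replicate 4 overlaps that of RAG1-/- replicate 3.

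Class I heavy chain genes resemble each other, so the stretches they have in common were counted. Of the 150-base windows of the longest coding transcript, 0 of 1470 of H2-K1 were found in another gene's transcript, and of its 75-base windows 24 of 1545 (1.55%) were. For H2-D1 these were 35 of 1953 (1.79%, with H2-Q1) and 140 of 2028 (6.9%). H2-T23 had 11 of 1323 (0.831%) and 183 of 1398 (13.1%). The members without a row were H2-Q4, with 0 of 1644 and 136 of 1719 (7.91%), and H2-Q7, with 133 of 1374 (9.68%) and 315 of 1449 (21.7%). H2-Q7 shared most with H2-Q6, so the H2-Q6 row may hold reads of H2-Q7. H2-M2, B2m and Tap1 had 0 at either length, and Tapbp 28 of 2824 (0.992%) at 75 bases. H2-Q8 had no transcript to search, so its stretches were not counted. How the authors' counting treated reads that fit several genes is not given in the sources used here, so the split between heavy chain genes is uncertain.

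The genes beside H2-K1 on chromosome 17 were read in the same way, in RefSeq order and 10 on either side. Only genes with enough reads to enter the fit were taken, and places are counted among these. H2-K2, a pseudogene 2 places away, had 15.48, 15.56 and 15.89 CPM in RAG1-/-, against 13.33, 22.6 and 31.19 CPM in RAG1-/- Sgo1-/+. Ring1, the next such gene on the other side and a Polycomb subunit, had 11.74, 6.465 and 7.415 against 10.51, 8.706 and 15.6 CPM. Neither was low in replicate 6. Rps18, a ribosomal protein gene 4 places away, was low in the libraries in which H2-K1 was low: it had 196, 159 and 192 reads in RAG1-/-, against 19, 140 and 18 in RAG1-/- Sgo1-/+. A separate row for its pseudogene Rps18-ps6 had 2086, 1100 and 1554 against 1548, 1096 and 896 reads, or 222.7, 222.2 and 235.2 against 312.7, 203.0 and 279.5 CPM, and was highest in replicates 4 and 6. H2-DMb1, a class II-like gene 10 places away on the other side, also had replicates 4 and 6 as its lowest libraries and replicate 5 as its highest, over a smaller range, with 44.95, 50.92 and 59.32 CPM in RAG1-/-, against 33.74, 65.02 and 39.93 CPM in RAG1-/- Sgo1-/+. Rps18 and H2-DMb1 were singled out after their values were seen.

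**Figure D3:**
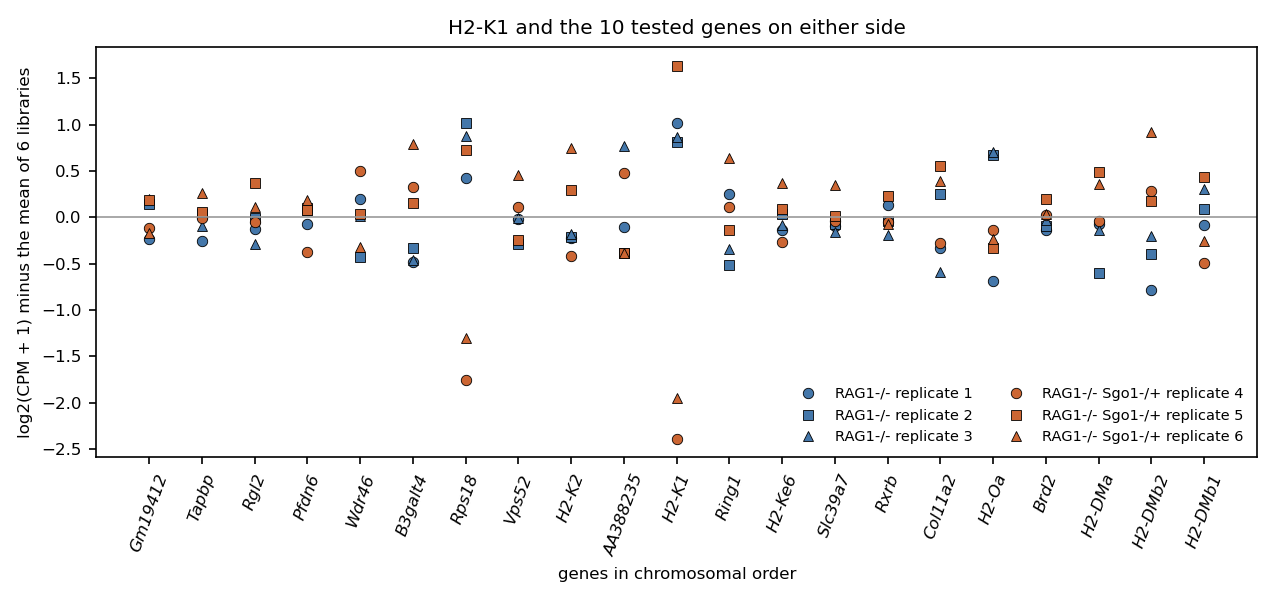
Level of H2-K1 and the nearest 10 genes of the fit on either side, in chromosomal order (horizontal axis). The vertical axis is log2(CPM + 1) minus the gene's mean over the 6 libraries, with 1 point per library. H2-K1 and Rps18 are the genes in which RAG1-/- Sgo1-/+ replicates 4 and 6 lie more than 1 below the mean.

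H2-Q8 (Gene ID 15019), a non-classical heavy chain of the Q region, was scarce but varied like H2-K1. It had 48, 20 and 26 reads in RAG1-/-, against 4, 45 and 0 in RAG1-/- Sgo1-/+, or 5.12, 4.04 and 3.94 CPM against 0.808, 8.34 and 0 CPM. Replicate 5 was the highest library and replicates 4 and 6 the lowest. The lowest RAG1-/- library was 4.87 times replicate 4 and, taking replicate 6 at 3 reads, at least 4.20-fold higher than replicate 6. The means were 4.37 ± 0.659 and 3.048 ± 4.597 CPM (SD, n = 3 each), with a log2 fold change of -0.43 (SE 0.87) whose sign changed without replicate 4 (0.035) or without replicate 6 (0.071) and which was -3.17 without replicate 5. Within the reads of H2-Q6, H2-Q8 and H2-Q9, genes of the same region, H2-Q8 made up 6.91%, 6.08% and 4.39% in RAG1-/-, against 1.36%, 5.29% and 0% in RAG1-/- Sgo1-/+. The 0 of 338 reads in replicate 6 allows a share of up to 1.12% by the Wilson interval. The interval of replicate 4 (4 of 295 reads, 0.5285 to 3.434%) overlapped that of RAG1-/- replicate 3 (3.015 to 6.357%). Stretches that H2-Q8 has in common with the other genes of the region were not counted.

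H2-T23 (Gene ID 15040) differed little between libraries. It had 1608, 896 and 1446 reads in RAG1-/-, against 837, 1196 and 830 in RAG1-/- Sgo1-/+, or 171.7, 181.0 and 218.8 CPM against 169.1, 221.5 and 258.9 CPM. Replicate 4 was the lowest of the 6 and replicate 6 the highest, and the groups overlapped. The log2 fold change was 0.18 (SE 0.17), and 0.037 without replicate 6.

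H2-M2 (Gene ID 14990), a non-classical heavy chain of the M region, was near the limit of detection in RAG1-/-. It had 4, 2 and 2 reads there and 2, 10 and 35 in RAG1-/- Sgo1-/+. These were 0.427, 0.404 and 0.303 CPM against 0.404, 1.85 and 10.9 CPM. Replicate 4 was level with RAG1-/-, and replicate 6, the library with the highest summed CPM of macrophage markers, held most of the reads. The log2 fold change of 3.39 (SE 1.09) became 1.54 without replicate 6 and 2.64 with a prior count of 2 reads. The part of macrophages in this value was not tested.

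B2m (Gene ID 12010), the light chain of class I molecules, had 8566, 3534 and 6083 reads in RAG1-/-, against 4212, 5788 and 4074 in RAG1-/- Sgo1-/+. The levels were 914.5, 714.0 and 920.5 CPM against 850.9, 1072 and 1271 CPM. Replicate 4 lay within the RAG1-/- range, as it did for H2-D1, and replicates 5 and 6 above it. The means were 850 ± 118 and 1065 ± 210 CPM (SD, n = 3 each), with a log2 fold change of 0.32 (SE 0.17). Without RAG1-/- replicate 2, which carries B cell RNA, and replicate 6 together, it was 0.068, and 0.18 without replicate 6 alone.

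In the sum of heavy chains, replicates 4 and 6 no longer stood together. The 5 heavy chain members summed to 1535, 1421 and 1510 CPM in RAG1-/-, against 1284, 2109 and 2179 CPM in RAG1-/- Sgo1-/+. Divided by B2m, this was 1.68, 1.99 and 1.64 against 1.51, 1.97 and 1.72, so the groups overlapped. Replicate 4 had the lowest ratio of the 6 libraries, and replicate 6 lay inside the RAG1-/- range. The log2 ratio of the mean sums was 0.32. It was 0.34 for 29 class I heavy chain rows, namely the 5 members, the 23 other listed genes with a row and the GS10 like row. For the member sum it was 0.53 without replicate 4, 0.22 without replicate 5 and 0.19 without replicate 6. H2-D1 made up 71.92%, 71.43% and 70.09% of the member sum in RAG1-/-, against 84.94%, 70.5% and 86.17% in RAG1-/- Sgo1-/+. H2-D1 thus carried most of the heavy chain reads in every library. Its share was higher in replicates 4 and 6, where H2-K1, which is part of the same sum, was low.

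Tap1 (Gene ID 21354), a subunit of the peptide transporter, had 508, 312 and 368 reads in RAG1-/-, against 161, 451 and 295 in RAG1-/- Sgo1-/+. The levels were 54.23, 63.04 and 55.69 CPM against 32.53, 83.54 and 92.02 CPM. Replicate 4 was below every RAG1-/- library and replicates 5 and 6 above every one, so the RAG1-/- Sgo1-/+ libraries lay on either side of the controls. The log2 fold change was 0.26 (SE 0.31), with 0.61 without replicate 4, 0.095 without replicate 5 and 0.015 without replicate 6.

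Tapbp (Gene ID 21356), the tapasin gene, had the smallest SE of the members. It had 2203, 1425 and 1735 reads in RAG1-/-, against 1382, 1572 and 1076 in RAG1-/- Sgo1-/+, or 235.2, 287.9 and 262.6 CPM against 279.2, 291.2 and 335.6 CPM. All 3 RAG1-/- Sgo1-/+ libraries lay above the RAG1-/- mean, but replicate 4 did not pass the highest RAG1-/- library. The means were 262 ± 26.4 and 302 ± 29.7 CPM (SD, n = 3 each), with a log2 fold change of 0.21 (SE 0.13). Tapbp lies 9 places from H2-K1 among the genes of the fit and did not share its low libraries.

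Over the 8 members, 6 log2 fold changes were above 0 and 2 below, with a median of 0.23 beside 0.034 over all genes tested. The groups did not overlap in 0 of the 8 members, against 11.8% of all genes (6.24% higher and 5.54% lower). Replicate 6 was the highest library for 6 members, and replicate 4 the lowest for 3. Per kilobase of transcript, the median level over the 6 libraries was 1067 CPM per kb for B2m, 522 for H2-D1, 139 for H2-K1, 136 for H2-T23, 97.8 for Tapbp, 20.1 for Tap1 and 0.268 for H2-M2, and H2-Q8 was without a transcript length. B2m ran from 830.3 to 1478 CPM per kb and H2-D1 from 483.0 to 893.2. These ranges overlapped across libraries, but within each library B2m was above H2-D1. H2-K1 ran from 14.2 to 241 CPM per kb, across H2-T23 (114.9 to 175.9) and Tapbp (81.2 to 115.8).

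The 3 pan-leukocyte markers summed to 312.8, 339.4 and 280.1 CPM in RAG1-/-, against 243.6, 344.5 and 576.8 CPM in RAG1-/- Sgo1-/+, lowest in replicate 4 and highest in replicate 6. All 3 were detected in every library. The high sum in replicate 6 came from Laptm5, at 429.2 CPM there and between 137.4 and 191.5 CPM elsewhere. Ptprc, which encodes CD45, was at 92.33 CPM in replicate 6 and Coro1a at 55.21 CPM, both inside the RAG1-/- range, and both were lowest in replicate 4 (54.75 and 42.63 CPM). The 5 dendritic cell markers ranged from 28.2 to 43.0 CPM in sum in RAG1-/- and from 26.3 to 59.3 in RAG1-/- Sgo1-/+, with the highest sum in replicate 5. The part of these cells in the members' values was not tested.

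The genes around the members were taken from lists of the same pathway, 96 genes in all, of which 95 had a row and 79 were tested. With edgeR's quasi-likelihood test 0 of the 79 passed the adjusted threshold, as for all genes. At an unadjusted P under 0.05, 7 were higher and 2 lower in RAG1-/- Sgo1-/+ (11.4% of the 79, against 5.66% of all genes, 3.15% being higher and 2.52% lower). The median log2 fold change over the 79 was 0.078, beside 0.034 over all genes, and 49 were above 0 and 30 below. The groups did not overlap in 8 of the 79, where 11.8% of all genes did so. The lists were chosen with earlier results of these data known, so these shares are a description and not a test of the pathway.

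Among the other heavy chains, 3 of 12 tested had an unadjusted P under 0.05, each higher in RAG1-/- Sgo1-/+. H2-Q6 had 20.28, 19.80 and 25.73 CPM in RAG1-/-, against 20.61, 46.31 and 38.68 CPM in RAG1-/- Sgo1-/+ (a log2 fold change of 0.68, SE 0.27, edgeR adjusted P=0.832). In H2-Q6 replicate 6 was high, in contrast to H2-Q8 of the same region. Whether the H2-Q6 row holds reads of H2-Q7, which has no row of its own, was not tested. H2-Q1 (log2 fold change 0.71, SE 0.28) and H2-Q2 (0.81, SE 0.32) had the same adjusted edgeR P. A further row, titled as a class I antigen GS10 like gene, had 159.2, 176.8 and 179.3 CPM in RAG1-/-, against 156.8, 288.6 and 264.5 CPM in RAG1-/- Sgo1-/+. Replicate 4 was slightly below every RAG1-/- library and replicates 5 and 6 were above every one, an order also seen in Tap1. The log2 fold change was 0.46 (SE 0.20, edgeR unadjusted P=0.0467, adjusted P=0.832). This row is not among the 12. H2-M3, a non-classical chain that presents formylated peptides, had a log2 fold change of -0.19 (SE 0.19). Of 8 class I-like molecules tested, 0 had an unadjusted P under 0.05.

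Of the other 5 factors of peptide loading and folding in the endoplasmic reticulum, 1 had an unadjusted P under 0.05. This gene, Calr, encodes the chaperone calreticulin and was at 99.5, 94.96 and 102.5 CPM in RAG1-/-, against 133.1, 101.9 and 142.6 CPM in RAG1-/- Sgo1-/+ (a log2 fold change of 0.34, SE 0.14, edgeR adjusted P=0.832). Canx, the related membrane chaperone, was lower in all 3 RAG1-/- Sgo1-/+ libraries, at 404.6, 368.2 and 397.1 CPM against 409.5, 441.7 and 431.0 CPM, but by a log2 fold change of -0.13 (SE 0.12). Pdia3, the oxidoreductase of the loading complex, had -0.09 (SE 0.14). Tap2, the partner of Tap1, had 87.01, 103.4 and 94.43 against 84.85, 108.5 and 142.6 CPM (log2 fold change 0.24, SE 0.18). Replicate 4 was the lowest library of both, by less in Tap2 than in Tap1. Tapbpl, a tapasin relative, had 0.26 (SE 0.16), and Erap1, which trims peptides to length, 0.07 (SE 0.14).

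The immunoproteasome, whose subunits replace those of the constitutive proteasome under interferon, had 0 of 7 tested genes at an unadjusted P under 0.05. The log2 fold changes of its catalytic subunits Psmb8, Psmb9 and Psmb10 were 0.31, 0.23 and 0.03. Those of the activator genes Psme1 and Psme2 were -0.03 (SE 0.14) and 0.64 (SE 0.55). Psme2 was scarce, with 11, 8 and 18 reads in RAG1-/-, against 10, 17 and 11 in RAG1-/- Sgo1-/+. The 3 constitutive catalytic subunits had a median of 0.079.

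Of the 17 regulators tested, 2 had an unadjusted P under 0.05, both higher. Rfxank, part of the complex that binds the X box of MHC promoters, was at 9.18, 9.09 and 7.57 CPM in RAG1-/-, against 9.09, 16.67 and 15.91 CPM in RAG1-/- Sgo1-/+ (a log2 fold change of 0.68, SE 0.28, edgeR adjusted P=0.832). Ciita, the class II transactivator, had a log2 fold change of 0.51 (SE 0.22) with the same adjusted edgeR P. Nlrc5, the transactivator of class I genes, was at 15.48, 17.78 and 17.71 CPM in RAG1-/-, against 13.33, 32.05 and 30.57 CPM in RAG1-/- Sgo1-/+ (0.57, SE 0.29). Like Tap1, it was below every RAG1-/- library in replicate 4 and above every one in replicates 5 and 6. Irf1, a transcription factor that interferon induces, had 0.08 (SE 0.13).

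Ifng, the gene of interferon gamma, was at the limit of detection. It had 0, 0 and 4 reads in RAG1-/-, against 0, 2 and 2 in RAG1-/- Sgo1-/+, and was not tested. Of the 7 interferon ligand and receptor genes tested, Tyk2, a kinase of the type I receptor, was higher in all 3 RAG1-/- Sgo1-/+ libraries, at 52.93, 47.42 and 48.35 CPM against 42.17, 38.39 and 38.89 CPM (log2 fold change 0.31, SE 0.13, edgeR adjusted P=0.832).

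The list of class I receptors, which besides natural killer and T cell genes holds Pirb, Lilrb4a and Cd244a, had 9 of 15 log2 fold changes below 0, with a median of -0.47, and 2 had an unadjusted P under 0.05, both lower in RAG1-/- Sgo1-/+. Klra3, an inhibitory Ly49 receptor gene, had 17, 13 and 12 reads in RAG1-/-, against 4, 4 and 2 in RAG1-/- Sgo1-/+ (a log2 fold change of -1.47, SE 0.62, edgeR adjusted P=0.832). Klra9 had 22, 4 and 14 against 2, 4 and 0 reads (-2.03, SE 0.88). Klrd1, the CD94 chain that reads H2-T23, was at 8.54, 11.92 and 11.05 against 6.06, 8.52 and 8.11 CPM (-0.47, SE 0.27). The 5 natural killer cell markers summed to 45.69, 12.93 and 36.47 CPM in RAG1-/-, against 21.62, 18.34 and 8.11 CPM in RAG1-/- Sgo1-/+, and their part in the receptor values was not tested.

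**Figure D4:**
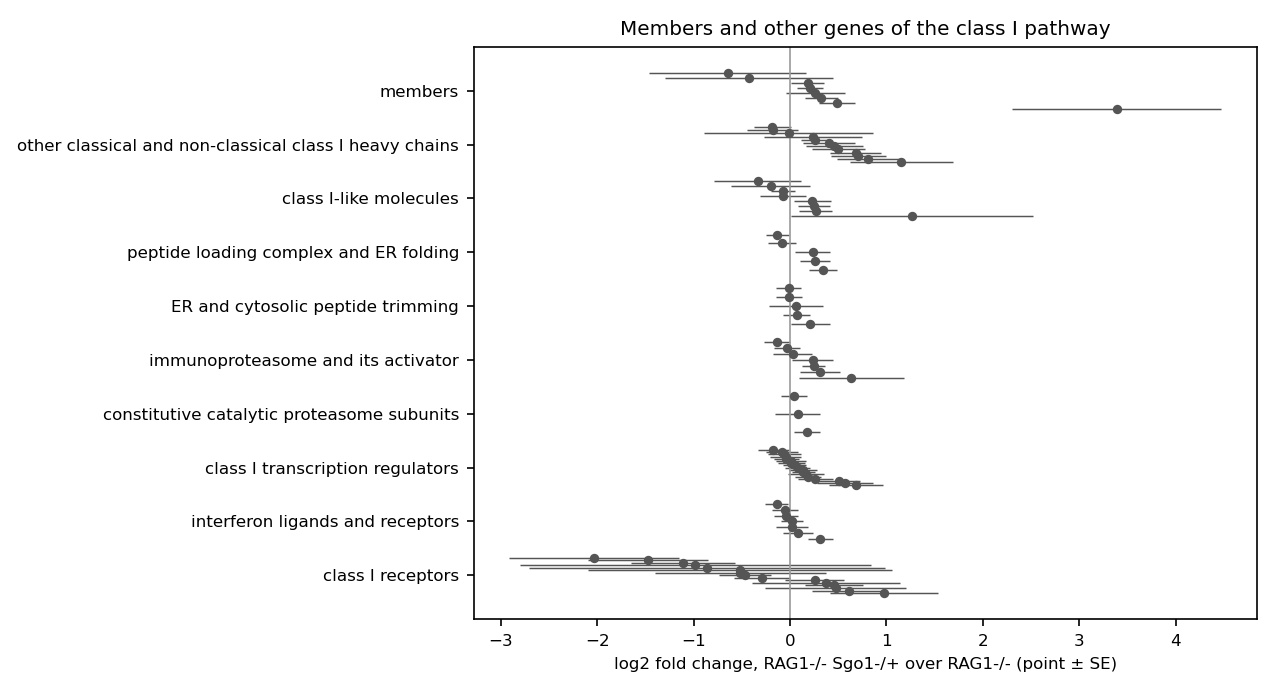
Log2 fold change of RAG1-/- Sgo1-/+ over RAG1-/- (horizontal axis, point ± SE of the edgeR fit, n = 3 libraries a group) for the 8 members and for 79 other genes of the class I pathway, grouped by list. Of the members, H2-K1 (-0.65) and H2-Q8 (-0.43) lie below 0 with bars that cross it, H2-M2 lies at 3.39, and the trimming genes sit close to 0.

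Genes whose levels followed a member across the 6 libraries were ranked by Pearson r of log2(CPM + 1) among 8538 genes with a mean of at least 20 CPM. For H2-K1 the 5 highest were Srsf7 (r = 0.992), Zfp275, Scgb3a2, Fam241a and Dync2li1 (r = 0.971). Srsf7 had 173.6, 171.1 and 168.4 CPM in RAG1-/-, against 126.5, 174.5 and 131.0 CPM in RAG1-/- Sgo1-/+, so its low libraries were those of H2-K1 at a much smaller distance. For B2m they were Tgif1 (r = 0.992), AU040972, Ercc2, Jak3 and Ehbp1l1 (r = 0.971), and for Tap1 Uqcc3 (r = 0.997), Ncf1, Ranbp3, Pdp1 and Prex1 (r = 0.975). With 6 points that share library depth and cell content, and 8538 genes to choose from, such values are a description.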

How the data were processed

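RNA from 6 lungs was made into libraries with the TruSeq V2 kit and sequenced on a MiSeq, per the labels. The authors mapped and counted reads with GeneSifter and deposited whole-number counts per gene without normalization. The submitters' processing notes name BWA and edgeR, and the table's header names an earlier mouse build, so no coordinates of the counts are given. The table repeats each library's column, and the 6 repeats were not used. A second deposited file holds the authors' group means, ratios and p-values and was not used. Of the Entrez Gene IDs, 24048 (93.0%) were matched to a symbol.

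All genes that reached a summed count of 10 entered 1 quasi-likelihood fit (edgeR 4.0.16, R 4.3.3), which used total counts as library sizes and a prior count of 0.125 and had been tested on simulated data. Calls needed a 2-fold difference and an adjusted P (Benjamini-Hochberg) under 0.05. The SE of a log2 fold change was worked out as its absolute value divided by the square root of the fit's F statistic. CPM are counts scaled to a common total, and a count of 3 was taken as the least detected. Each library is a separate mouse.

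The members and lists were chosen with earlier results of these data known. Named genes were all members, Sgo1, Rag1, 17 fixed pathway genes, any pathway gene whose unadjusted P was under 0.05, and the 5 genes most like H2-K1, B2m and Tap1. Of the fixed pathway genes, 1 is not reported here. Genes outside this rule were picked with values in view, including Rps18, Rps18-ps6, H2-DMb1, H2-K2, Ring1, H2-Q9, Klrd1, Cd8a, Cd8b1 and Xist. Promoters are from RefSeq on GRCm38.p6 and transcripts from GENCODE, both on a later build than the counts. Alternatives were TMM, DESeq2 1.42.0, limma-voom (limma 3.58.1), no filter, filterByExpr, a prior count of 2, calls with no fold threshold, the ratio of mean CPM, each library left out, and replicates 2 and 6 left out together. Added after the data were seen were the sum of H2-K1 and H2-D1 alone and the fit without replicates 4 and 6.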

Additional observations from a re-analysis of the deposited data

How the results depend on the processing

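The number of genes called moved from 0 to 1 with DESeq2 and was 0 or 1 with any 1 library left out. The gene called by DESeq2 was Awat1. Without RAG1-/- Sgo1-/+ replicate 5 the 1 gene called was H2-K1 itself (log2 fold change -3.11). Replicate 5 is the RAG1-/- Sgo1-/+ library in which H2-K1 was not low, and the gene was listed with these values known, so this count is a description and no test of H2-K1. Of 135 alternative values 128 stayed within 1 SD of the libraries or 1.5 times the count, and 7 moved. Besides the counts named, these were H2-K1 (-3.11) and H2-Q8 (-3.17) without replicate 5, H2-M2 without replicate 6 (1.54) or without replicates 2 and 6 (1.57), and B2m without replicates 2 and 6 (0.068). Only H2-K1 and H2-Q8 changed sign under an alternative, H2-Q8 also without replicates 2 and 6 (0.022), and both without replicates 4 and 6 (0.74 and 0.92). Over the libraries left out in turn, log2 fold changes ran from 0.037 to 0.33 for H2-T23, 0.18 to 0.46 for B2m, 0.015 to 0.61 for Tap1 and 0.12 to 0.28 for Tapbp. No paired analysis was possible because the replicate numbers of the groups are not shared. Depth limited H2-M2 and H2-Q8, with 55 and 143 reads over the 6 libraries.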
